A study of Rattus norvegicus with 9 samples.

Results

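In rat brain after middle cerebral artery occlusion, 9 genes of the glutamatergic synapse were followed. They were chosen by Ensembl ID and are the NMDA receptor subunit genes Grin1, Grin2a and Grin2b, the AMPA receptor subunit genes Gria1 and Gria2, the metabotropic receptor gene Grm5, the scaffold gene Dlg4, the kinase gene Camk2a and the vesicular transporter gene Slc17a7. These are 9 of the 32883 gene IDs in the deposited table. All 9 were listed above 0 in every library and passed the filter on low values, as did 15051 of the genes in all. The table carries IDs without names, the rat gene table used here paired 0 of them with a symbol, and the names of the 9 IDs were taken from the rule that defined the set and could not be checked independently. For the same reason the marker lists of other cell types and brain regions, and the list of further synapse genes, were not applied, so the tissue was not checked against its markers.

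Glutamate is the main excitatory transmitter of the brain. It is packed into vesicles by transporters such as the product of Slc17a7 and, once released, opens AMPA receptors for fast transmission and NMDA receptors for calcium entry. The product of Dlg4 holds the receptors in the postsynaptic density, and calcium entering there activates the kinase encoded by Camk2a. In ischaemia the excess of extracellular glutamate and the calcium load through NMDA receptors are known as excitotoxicity.

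The libraries came from rats with a sham operation (sham 4B, 5B and 9A), rats with middle cerebral artery occlusion (MCAO 3B, 6B and 7A), a surgical stroke model, and rats with the occlusion that were given Panax notoginseng (PN 3A, 6A and 7A), a medicinal plant. The series is titled as a study of ischaemia-reperfusion injury, and the codes are those that end the sample titles. Strain, age, sex, dose, time after surgery, brain region and hemisphere are not stated in the sources at hand. Whether the 3 samples in a group are 3 animals is not stated, and every p-value therefore measures only how far these samples spread, which may be technical. Values are FPKM, fragment numbers divided by transcript length and by the number of mapped fragments. The number of reads behind a value is unknown. In bulk tissue, fewer cells of a type and less RNA per cell cannot be told apart.

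One library stood apart in these genes. PN 3A had the lowest value of the 9 libraries for 8 of the 9 genes, with a median deviation of -1.79 on the log2 scale from each gene's mean over the libraries. Over 14481 tested genes listed above 0 in every library its median deviation was 0.05, so the typical gene was not low there. That median lay between -0.06 (MCAO 7A) and 0.07 (PN 7A) in all libraries and does not show how far single genes deviate. The weight per library that limma fitted over all genes tested was lowest for PN 3A (0.345). How many of all genes had their lowest value in PN 3A was not worked out. Its FPKM sum, 445693, was the highest of the 9, where the lowest was 387893. Its column name has a start of its own, where the other 2 PN columns share one. The sham columns carry 2 different starts, and sham 9A (median deviation 0.15) is also alone with its start. What a start marks is not stated, and its part in the low values was not tested. MCAO 7A lay at the other end, with the highest value for 4 genes and a median deviation of 0.92. The plot of deviations by library shows both.

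**Figure D1:**
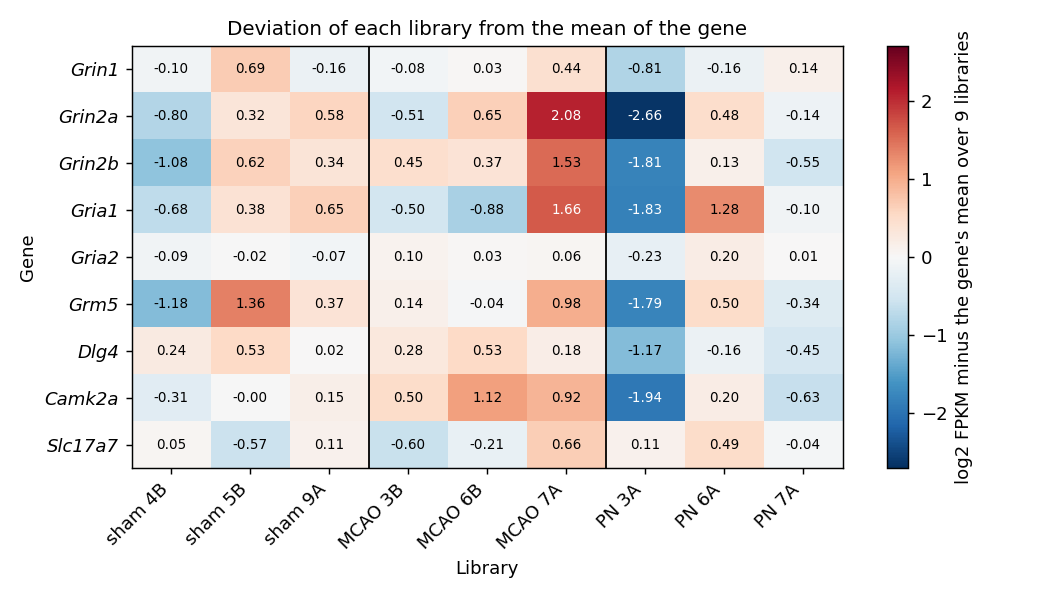
Deviation of each of the 9 genes (rows) in each of the 9 libraries (columns) from the gene's own mean, as a difference of log2 FPKM, with blue below and red above the mean. PN 3A is the lowest library for 8 genes, and the Slc17a7 row does not share that pattern.

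Grin1 (ENSRNOG00000011726) encodes the subunit that every NMDA receptor contains. Its level was 92.5, 159 and 88.8 FPKM in sham libraries 4B, 5B and 9A, 93.7, 101 and 134 FPKM in MCAO libraries 3B, 6B and 7A, and 56.5, 88.3 and 109 FPKM in PN libraries 3A, 6A and 7A. Sham 5B was the highest library, PN 3A was the lowest, and the 3 groups overlapped. The log2 difference, on log2(FPKM + 1) as for all differences below, was -0.01 ± 0.30 (standard error) for MCAO against sham (limma, adjusted p = 0.991), with a sign that turned under 3 other scalings. It was -0.40 ± 0.30 for PN against MCAO (limma, adjusted p = 0.571) and -0.14 without PN 3A.

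Grin2a (ENSRNOG00000033942) encodes the GluN2A subunit, which becomes prominent in mature forebrain synapses. It was at 5.54, 11.995 and 14.4 FPKM in sham libraries 4B, 5B and 9A, at 6.77, 15.1 and 40.7 FPKM in MCAO libraries 3B, 6B and 7A, and at 1.53, 13.4 and 8.71 FPKM in PN libraries 3A, 6A and 7A. The MCAO libraries alone spanned 6.01-fold and the PN libraries 8.81-fold, with MCAO 7A and PN 3A at the ends of the whole range, and all groups overlapped. The difference was 0.67 ± 0.73 for MCAO against sham (limma, adjusted p = 0.745), and its 95% interval, -0.98 to 2.31, left room for a 4-fold higher level. Single MCAO libraries carried this value, which was 0.035 without MCAO 7A and 1.25 without MCAO 3B. For PN against MCAO it was -1.29 ± 0.73 (limma, adjusted p = 0.472), -0.55 without PN 3A and -0.66 without MCAO 7A. All 3 PN codes end in the letter A, while sham and MCAO hold 1 A and 2 B each, and what the letter marks is not stated. With the letter as a term in the fit the difference of PN from MCAO was -2.17 (limma, adjusted p = 0.584). Since all PN codes share the letter, that term rests on sham and MCAO alone. MCAO 7A, the highest library for Grin2a, is the only A library of its group.

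Grin2b (ENSRNOG00000008766) encodes the GluN2B subunit, which predominates early in development and gives slower currents than GluN2A. Its level was the lowest of the 9 genes: 1.71, 5.57 and 4.61 FPKM in sham libraries 4B, 5B and 9A, 4.96, 4.70 and 10.49 FPKM in MCAO libraries 3B, 6B and 7A, and 1.03, 3.97 and 2.48 FPKM in PN libraries 3A, 6A and 7A. Each PN library was below each MCAO library, while the sham libraries overlapped with both. On the FPKM + 1 scale Grin2b was 2.23-fold lower in PN than in MCAO, a log2 difference of -1.16 ± 0.45. It did not pass the adjusted threshold of 0.05 (limma, unadjusted p = 0.0280, adjusted p = 0.336). At such low levels the added 1 shrinks the difference, which was -1.48 with 0.1 added instead (limma, adjusted p = 0.348). Without PN 3A, and with 1 added, the difference was -0.81 (limma, adjusted p = 0.787).

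The balance of the GluN2 subunits was compared as the ratio of Grin2a to Grin2b within each library, which does not depend on a scaling factor per library. The ratio was 3.23, 2.15 and 3.12 in sham 4B, 5B and 9A, 1.36, 3.22 and 3.88 in MCAO 3B, 6B and 7A, and 1.47, 3.39 and 3.51 in PN 3A, 6A and 7A. Grin2a was therefore listed above Grin2b in all 9 libraries, and the low ratios were those of MCAO 3B and PN 3A. The group means of the log2 ratio were 1.48 ± 0.32 in sham, 1.36 ± 0.80 in MCAO and 1.38 ± 0.71 in PN (SD, n = 3 each). No comparison of groups exceeded the spread between libraries, with two-sided exact permutation p = 0.9 for MCAO against sham and 1 for PN against either other group (adjusted p = 1 for each over 6 ratio tests, where 3 libraries against 3 can give no p below 0.1). With PN 3A left out, the mean log2 ratio was higher in PN than in MCAO by 0.42 and than in sham by 0.31, with exact permutation p = 0.8 and 0.3.

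**Figure D2:**
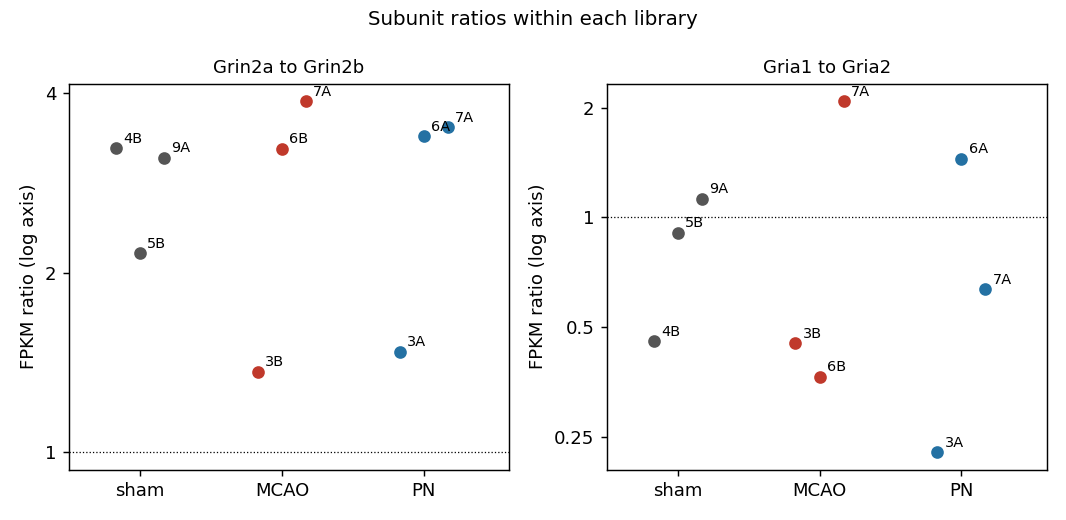
Ratio of FPKM values within each library on a log axis, Grin2a to Grin2b at the left and Gria1 to Gria2 at the right, by group, with the sample code beside each point and a dotted line at equal levels. All Grin2a to Grin2b ratios lie above 1, and Gria1 to Gria2 ratios run from 0.226 in PN 3A to 2.09 in MCAO 7A.

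The AMPA receptor genes differed from each other in how much they varied. Gria1 (ENSRNOG00000045816), whose GluA1 subunit is inserted into synapses during potentiation, was at 22.2, 46.5 and 55.8 FPKM in sham libraries 4B, 5B and 9A, at 25.2, 19.4 and 113 FPKM in MCAO libraries 3B, 6B and 7A, and at 10.03, 86.7 and 33.2 FPKM in PN libraries 3A, 6A and 7A. High and low libraries occurred in both the MCAO and the PN group, and the range of MCAO covered that of sham. The difference was -0.01 ± 0.81 for MCAO against sham (limma, adjusted p = 0.997), and its sign turned under 3 other scalings. For PN against MCAO it was -0.29 ± 0.81 (limma, adjusted p = 0.899). It turned to 0.48 without PN 3A and likewise to 0.48 without MCAO 7A. With the code letter in the fit, a term that rests on sham and MCAO alone, it was -1.32 (limma, adjusted p = 0.594).

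Gria2 (ENSRNOG00000024629) encodes GluA2, the subunit that makes AMPA receptors nearly impermeable to calcium. Its level was 48.6, 51.2 and 49.6 FPKM in sham libraries 4B, 5B and 9A, 55.8, 53.1 and 54.1 FPKM in MCAO libraries 3B, 6B and 7A, and 44.3, 59.8 and 52.4 FPKM in PN libraries 3A, 6A and 7A. The MCAO libraries lay above all sham libraries by a small margin, and the PN libraries spread on both sides. Gria2 was 1.09-fold higher in MCAO than in sham (log2 difference 0.12 ± 0.15, limma adjusted p = 0.767), and the 95% interval, -0.21 to 0.45, excluded a 2-fold change. The difference of PN from MCAO was -0.07 ± 0.15 (limma, adjusted p = 0.867), and 0.04 without PN 3A.

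The ratio of Gria1 to Gria2 was 0.457, 0.907 and 1.13 in sham 4B, 5B and 9A, 0.451, 0.365 and 2.09 in MCAO 3B, 6B and 7A, and 0.226, 1.45 and 0.635 in PN 3A, 6A and 7A. Gria1 was listed above Gria2 in sham 9A, MCAO 7A and PN 6A and below it in the other libraries. The mean log2 ratio was -0.37 ± 0.68 in sham, -0.51 ± 1.37 in MCAO and -0.75 ± 1.34 in PN (SD, n = 3 each), and no comparison passed (two-sided exact permutation p = 0.8 for MCAO against sham and for PN against MCAO, and 0.7 for PN against sham; adjusted p = 1 for each). Without PN 3A the difference turned from -0.24 to 0.45 for PN against MCAO and from -0.39 to 0.31 for PN against sham (exact permutation p = 0.7 for each). Without MCAO 7A the difference of PN from MCAO turned to 0.55 (exact permutation p = 0.7).

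Grm5 (ENSRNOG00000016429) encodes the metabotropic receptor mGluR5, which couples to phospholipase C and calcium release from stores. It was at 7.64, 44.1 and 22.3 FPKM in sham libraries 4B, 5B and 9A, at 19.0, 16.8 and 33.9 FPKM in MCAO libraries 3B, 6B and 7A, and at 5.01, 24.4 and 13.6 FPKM in PN libraries 3A, 6A and 7A. Sham 5B was the highest library and sham 4B the lowest but for PN 3A, so the sham libraries, which spanned 5.78-fold, covered all MCAO values. The difference was 0.15 ± 0.64 for MCAO against sham (limma, adjusted p = 0.950). It was -0.83 ± 0.64 for PN against MCAO (limma, adjusted p = 0.590), and -0.26 without PN 3A.

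Dlg4 (ENSRNOG00000018526) encodes PSD-95, the main scaffold of the postsynaptic density. Its level was 227, 278 and 195 FPKM in sham libraries 4B, 5B and 9A, 233, 279 and 218 FPKM in MCAO libraries 3B, 6B and 7A, and 85.8, 173 and 141 FPKM in PN libraries 3A, 6A and 7A. The 3 PN libraries were the 3 lowest of the 9, while sham and MCAO overlapped. The group means were 233 ± 41.6 FPKM in sham, 243 ± 31.8 in MCAO and 133 ± 44.0 in PN (SD, n = 3 each). Dlg4 was 1.88-fold lower in PN than in MCAO (log2 difference -0.91 ± 0.26, 95% interval -1.50 to -0.32), which did not pass after adjustment over all genes (limma, unadjusted p = 0.00646, adjusted p = 0.252). It was 1.80-fold lower in PN than in sham (-0.85 ± 0.26, limma unadjusted p = 0.00970, adjusted p = 0.974). Without PN 3A these differences were -0.63 (limma, adjusted p = 0.568) and -0.56 (limma, adjusted p = 0.972). Between MCAO and sham the difference was 0.07 ± 0.26, with a 95% interval of -0.52 to 0.65 that excluded a 2-fold change.

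Camk2a (ENSRNOG00000018712) encodes the alpha subunit of calcium/calmodulin-dependent kinase II, an abundant enzyme of forebrain excitatory neurons. It was at 398, 494 and 549 FPKM in sham libraries 4B, 5B and 9A, at 701, 1073 and 937 FPKM in MCAO libraries 3B, 6B and 7A, and at 129, 567 and 321 FPKM in PN libraries 3A, 6A and 7A. The MCAO libraries were the 3 highest of the 9, and the PN libraries overlapped with sham, PN 6A lying above all 3 sham libraries. Camk2a was 1.87-fold higher in MCAO than in sham (log2 difference 0.90 ± 0.46, 95% interval -0.12 to 1.93), which did not pass (limma, unadjusted p = 0.0780, adjusted p = 0.495). The spread behind this interval is pooled over the 3 groups, the PN libraries included. With only the 6 libraries compared the difference was 0.90 ± 0.24 (limma, adjusted p = 0.251), and without PN 3A it was 0.90 ± 0.27 (limma, adjusted p = 0.240). Camk2a was 3.10-fold lower in PN than in MCAO, the largest difference among the 9 genes in any comparison (-1.63 ± 0.46, 95% interval -2.66 to -0.61), and did not pass either (limma, unadjusted p = 0.00553, adjusted p = 0.238).

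The size of the Camk2a difference depended on single libraries. Without PN 3A it was -1.06 between PN and MCAO (limma, adjusted p = 0.503), and over all libraries left out in turn it ran from -2.12 without PN 6A to that value. The call was made only when limma's array weights were used (adjusted p = 0.0382), which gave PN 7A a weight of 6.19 and PN 3A 0.345. With array weights and PN 7A left out the limma adjusted p was 0.601. How many of all genes passed with array weights is not given here. Against sham, the lower level in PN was -0.73 ± 0.46 (limma, adjusted p = 0.974), and -0.16 without PN 3A.

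**Figure D3:**
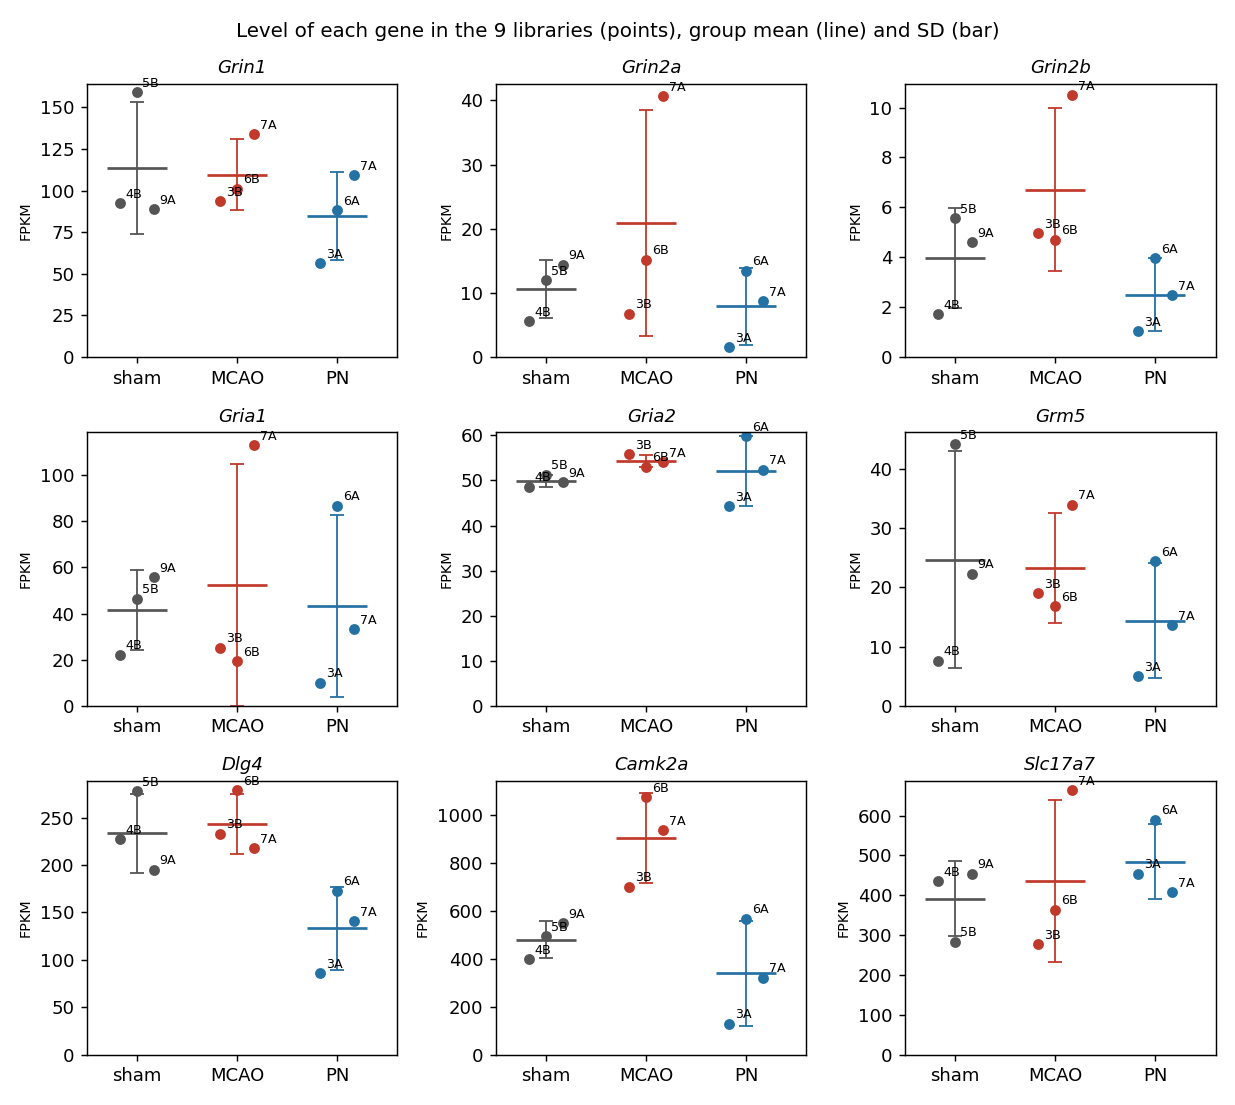
FPKM of the 9 genes in each library (points with the sample code), by group, with the group mean (line) and SD (bar, n = 3). Camk2a is highest in the 3 MCAO libraries and Dlg4 is lowest in the 3 PN libraries, while Grin2a, Gria1 and Grm5 spread widely within groups and Gria2 stays between 44.3 and 59.8 FPKM.

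Slc17a7 (ENSRNOG00000020650) encodes VGLUT1, the transporter that fills vesicles of cortical, hippocampal and cerebellar granule neurons with glutamate, and it is the presynaptic gene of the set. Its level was 435, 283 and 455 FPKM in sham libraries 4B, 5B and 9A, 278, 363 and 665 FPKM in MCAO libraries 3B, 6B and 7A, and 454, 590 and 408 FPKM in PN libraries 3A, 6A and 7A. Here PN 3A, the lowest library for the 8 other genes, lay between sham 4B and sham 9A, and MCAO 3B was the lowest. The group ranges overlapped, with a mean of 391 ± 93.9 FPKM in sham, 435 ± 203 in MCAO and 484 ± 94.6 in PN (SD, n = 3 each). The log2 difference was 0.09 ± 0.33 for MCAO against sham (limma, adjusted p = 0.944). For PN against MCAO it was 0.24 ± 0.33 (limma, adjusted p = 0.784), with a 95% interval of -0.51 to 0.98.

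Upstream sequence is shown for the subunit common to all NMDA receptors and for the gene that correlated least with the mean profile of the set over the 9 libraries. The RefSeq promoter table (build GRCr8) held 5 of the 9 genes, and Grin2a, Grin2b, Gria1 and Gria2 were not among them. Only bases before the first annotated transcript start of the gene are printed, which leaves out Grm5, Dlg4 and Camk2a, whose windows lie inside the annotated gene. Capitals mark the GC box GGGCGG on either strand, and the last pair of matches in Slc17a7 overlaps.
Grin1, chr3:28528755-28529004, minus strand: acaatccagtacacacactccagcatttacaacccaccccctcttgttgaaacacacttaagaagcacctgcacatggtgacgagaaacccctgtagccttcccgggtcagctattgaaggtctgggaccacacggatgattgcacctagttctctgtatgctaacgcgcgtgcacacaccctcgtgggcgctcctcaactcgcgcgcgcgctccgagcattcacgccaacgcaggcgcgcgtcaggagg
Slc17a7, chr1:104785955-104786171, plus strand: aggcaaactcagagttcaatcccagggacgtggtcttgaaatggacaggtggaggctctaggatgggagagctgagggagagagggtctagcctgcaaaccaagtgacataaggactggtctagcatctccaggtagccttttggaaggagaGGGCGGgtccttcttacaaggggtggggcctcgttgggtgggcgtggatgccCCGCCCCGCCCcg
The Slc17a7 window of 217 bases held 3 GC box matches and the Grin1 window of 250 bases held 0. Of the 33469 promoters in the table, 26.9% had at least 1 match in the first 217 bases and 30.5% in the first 250. The cAMP response element TGACGTCA was found in neither window, and in 1.19% and 1.59% of all promoters at these lengths. For these shares the promoters were not cut at the annotated gene, as the printed windows were, so bases inside genes are included. A match is a description of letters and was not tied to the levels.

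Read over the set, none of the 9 genes passed in any of the 3 comparisons (limma with adjustment over all genes), where 0.00664% of the 15051 genes passed for the occlusion, 0.00664% for the treatment and 0.0199% for treated rats against sham. At an unadjusted p under 0.05 the members numbered 0 in MCAO against sham, against 11.1% of all genes. They numbered 3 in PN against MCAO, Grin2b, Dlg4 and Camk2a, against 13.2% of all genes; all 3 were lower in PN, as were 4.52% of all genes. In PN against sham Dlg4 alone reached it, against 4.25% of all genes, and it was lower in PN, as were 0.85% of all genes. Without PN 3A the count in PN against MCAO was 2, Dlg4 and Camk2a, beside 6.99% of all genes. It ran from 2 to 4 over the libraries left out in turn, and for the other libraries the share of all genes was not worked out. In MCAO against sham it was then 1, Camk2a, beside 14.2%, and in PN against sham 1, Dlg4, beside 4.7%.

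Separation of the libraries gave a similar picture. In MCAO against sham, Gria2 and Camk2a were higher without overlap, as were 8.59% of all genes, and no member was lower without overlap (11% of all genes). In PN against MCAO, Grin2b, Dlg4 and Camk2a were lower without overlap, as were 6.69% of all genes, and no member was higher (13.6%). In PN against sham, Dlg4 was lower without overlap (2.53% of all genes), and no member was higher (6.18%). Without PN 3A the same 3 genes were lower in PN than in MCAO (7.78% of all genes) and no member was higher (17.3%). Against sham Dlg4 was then lower (6.45%) and Gria2 was higher (12.8%). Genes that separate with all libraries must still separate when a library is left out. The lower calls of these 3 genes and of Dlg4 against sham are therefore no check on PN 3A.

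The median log2 difference over the 9 genes was 0.12 for MCAO against sham, beside -0.01 over all genes tested, and 2 of the 9 genes were lower in MCAO, as were 51.8% of all genes. It was -0.83 for PN against MCAO, beside 0.07, and 8 of the 9 genes were lower in PN, as were 42.9% of all genes tested. For PN against sham it was -0.50, beside 0.04, with 7 of 9 lower, as were 44.5% of all genes. The comparisons share libraries, so they are not independent of one another. PN 3A carried much of these medians: without it they were -0.26 for PN against MCAO and -0.11 for PN against sham. The median for MCAO against sham also moved with single libraries, from 0.035 without MCAO 7A to 0.34 without MCAO 6B. The code letter in the fit could not move the median for MCAO against sham from 0.12, since these groups hold 1 A and 2 B each. With the letter the medians were -1.20 for PN against MCAO and -0.87 for PN against sham. The letter term rests on sham and MCAO alone, where sham 9A and MCAO 7A are the A libraries. Most of the genes correlated across libraries, so they do not count as separate observations.

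**Figure D4:**
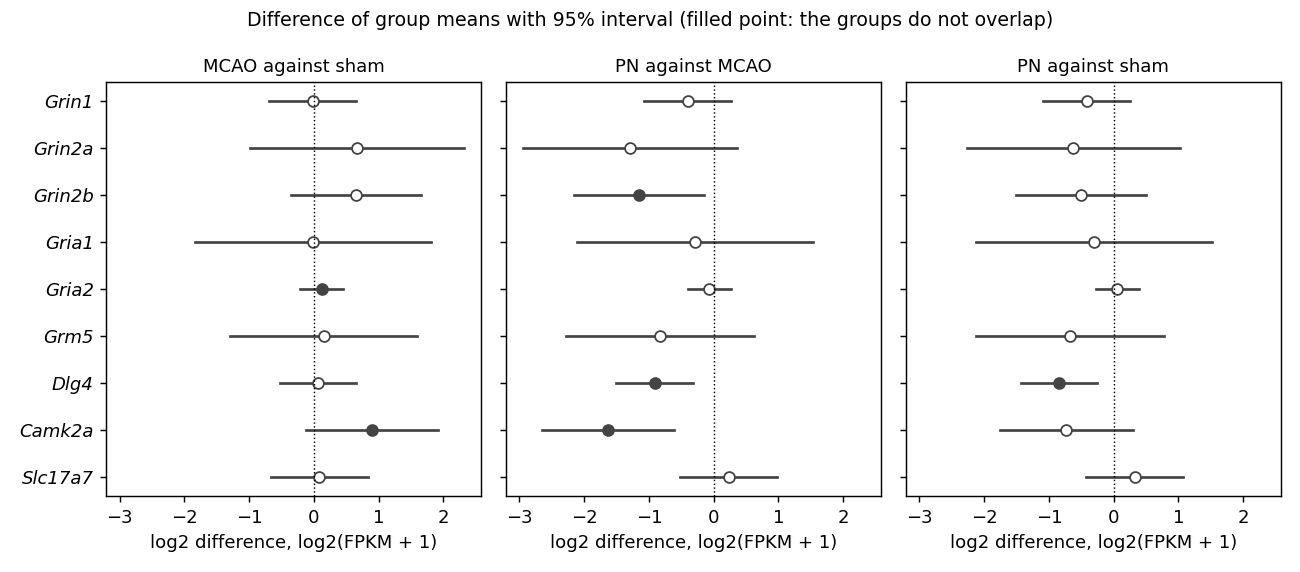
Log2 difference of group means on the log2(FPKM + 1) scale for each gene in the 3 comparisons, with the 95% interval from limma. Filled points mark genes whose groups do not overlap: Gria2 and Camk2a in MCAO against sham, Grin2b, Dlg4 and Camk2a in PN against MCAO, and Dlg4 in PN against sham.

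Across all 9 libraries Pearson's r was above 0 for all pairs of the 8 genes other than Slc17a7. Of the 8 correlations with Slc17a7, 7 lay below all of these, and the difference between these sets of pairs was not tested. Among the 28 pairs of genes other than Slc17a7, Pearson's r of log2 FPKM ran from 0.36 to 0.92 with a median of 0.71. Spearman's rho of the same pairs ran from -0.08 to 0.83. The closest pairs were Grin2b with Grm5 (r = 0.92, exact permutation p = 0.000659, adjusted p = 0.0184; Spearman's rho = 0.83, exact permutation p = 0.00827, adjusted p = 0.194) and Grin2a with Grin2b (r = 0.91, exact permutation p = 0.00102, adjusted p = 0.0184; rho = 0.68, exact permutation p = 0.0503, adjusted p = 0.249). Over all 36 pairs, 9 passed by r after adjustment and 0 by rho. The 8 pairs with Slc17a7 had r from -0.35 with Dlg4 to 0.49 with Gria1, and 0 of them passed.

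These relations rested in large part on PN 3A. Without the pair of libraries farthest from the median of the first gene, r was 0.70 for Grin2b with Grm5 and 0.65 for Grin2a with Grin2b, and the median over the 28 pairs was 0.38. Without PN 3A alone that median was 0.36, with a range from -0.31 to 0.85, and the 2 closest pairs stood at 0.85 and 0.83. The 8 pairs with Slc17a7 then ran from -0.46 to 0.70, with a median of 0.14, and overlapped that range, the highest being 0.70 with Gria1 and 0.60 with Grin2a. With group means removed, all libraries kept, the median was 0.73. PN 3A is among these libraries, and no value with group means removed was computed without it. How far this median rests on PN 3A is therefore not known. The Slc17a7 pairs ran from -0.15 to 0.58 with group means removed and all libraries kept. No start of a column name covers more than 3 libraries, too few for a relation within it.

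The spread within groups was wide for most of these genes. The residual standard deviation on the log2(FPKM + 1) scale had a median of 0.63 over the 9 genes, beside 0.32 over all genes tested, and 8 of the 9 were above the latter. It was 1.23 for Gria1, which exceeded 98.8% of the genes tested, 1.10 for Grin2a (98.2%) and 0.97 for Grm5 (97.0%). Gria2 stood at the other end with 0.13, where 4.31% of genes had a smaller value. When PN 3A was left out, the median was 0.50, beside 0.29 over all genes tested, with 7 of the 9 above it, and Dlg4 (0.22) and Gria2 (0.068) below. Gria1, Grin2a and Grm5 then stood at 1.04, 0.89 and 0.86, each above at least 96.1% of the genes tested.

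The 95% interval of the difference, which depends on its size as well as on the spread, lay within a 2-fold change either way for 4 of the 9 genes in MCAO against sham (Grin1, Gria2, Dlg4 and Slc17a7), as for 61.8% of all genes. In PN against MCAO this held for 2 genes (Gria2 and Slc17a7), beside 60.7% of all genes, and in PN against sham for Gria2 alone, beside 68.9%.

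Levels in FPKM can be set against each other because they are per length, as far as the transcript models allow. In sham the order of the means from high to low was Camk2a (480 ± 76.2), Slc17a7 (391 ± 93.9), Dlg4 (233 ± 41.6), Grin1 (114 ± 39.6), Gria2 (49.8 ± 1.32), Gria1 (41.5 ± 17.4), Grm5 (24.7 ± 18.4), Grin2a (10.6 ± 4.57) and Grin2b (3.96 ± 2.01 FPKM; SD, n = 3 each). Camk2a and Slc17a7 overlapped within their ranges, as did Gria2 with Gria1, Gria1 with Grm5, Grm5 with Grin2a and, barely, Grin2a with Grin2b. In PN, Slc17a7 (484 ± 94.6 FPKM) stood above Camk2a (339 ± 220 FPKM), and within libraries it did so in all 3 PN libraries and in sham 4B.

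Genes with a profile most like the 9 were sought by Pearson's r, over the 9 libraries, with the mean of the members' standardised log2(FPKM + 1). Among 14472 candidates the closest was ENSRNOG00000012240 (r = 0.995), at 25.9, 39.8 and 34.8 FPKM in sham libraries 4B, 5B and 9A, 35.2, 35.4 and 56.7 FPKM in MCAO libraries 3B, 6B and 7A, and 16.9, 41.3 and 29.4 FPKM in PN libraries 3A, 6A and 7A. The next was ENSRNOG00000005726 (r = 0.992), from 6.40 FPKM in PN 3A to 25.2 FPKM in MCAO 7A. Both IDs are without a name in the table. Of the members themselves, Grin2a was closest to the mean profile (r = 0.96) and Slc17a7 farthest from it (r = 0.21). Each member is itself part of that mean, which raises its r, while the 2 IDs are not. Over the 8 libraries other than PN 3A the r of the 2 IDs was 0.988 and 0.972, Grin2b was the closest member (r = 0.94), and Dlg4 (r = 0.28) was farther than Slc17a7 (r = 0.39). These values describe likeness over 9 or 8 libraries, were picked as the highest of many, and carry no test.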

How the data were processed

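RNA from 9 rat brain samples in 3 groups of 3 was enriched for mRNA with oligo(dT) and sequenced on an Illumina instrument, per the labels' protocols. The authors deposited 1 table of FPKM values per Ensembl gene ID, per the file headers. Tools listed in the submitters' processing notes, with no roles, are StringTie 1.3.1, HISAT2, Bowtie2 2.2.8 and fastp 0.18.0; genome build, annotation and strandedness: not given in the sources used here. Values of 4792 rows, among them all members but Grin2a, Grin2b and Gria2, carry more than 6 decimals, and the step that made them is not stated. Read depth is unknown, so no counting interval is given. Columns were matched to samples by the code that ends the title. For 7A, a code found in 2 titles, the start of the column name, common to columns of a known group, decided.

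Genes with FPKM of at least 1 in at least 3 libraries were tested on log2(FPKM + 1) with limma 3.58.1 in R 4.3.3 (mean-variance trend, 1 fit of all 9 libraries, two-sided, Benjamini-Hochberg over the 15051 genes tested, threshold 0.05). The pipeline was tested on simulated data. Ratios and correlations were tested by exact permutation in Python 3.11.15 with numpy 2.4.6. All 9 members are named; for genes of similar profile, unnamed in the table, only the first 2 IDs are printed. The members and lists were chosen with earlier results of these data known. Alternatives were another pseudocount, filter or scaling, robust empirical Bayes, array weights, only the 6 libraries compared, the letter or number of the sample code in the fit, and each library left out in turn. Chosen after seeing the data were array weights with PN 7A left out, and the spread, likeness and counts of members (unadjusted p, overlap) with PN 3A left out.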

Additional observations from a re-analysis of the deposited data

How the results depend on the processing

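No member passed in any comparison under any alternative but array weights in PN against MCAO, which called 1 gene, Camk2a (log2 difference -1.45, limma adjusted p = 0.0382). With PN 7A left out as well, 0 were called, and the cause was not tested further. How many of all genes tested passed with array weights is not given here, so that call cannot be read as particular to Camk2a. With sample numbers entered as a replicate block, 0 members were called in PN against MCAO (Camk2a -1.63, limma adjusted p = 0.473). Before adjustment, 4 members fell below 0.05 with this block, and 3 did with only the 6 libraries compared (limma). The share of all genes below 0.05 under these settings was not worked out, so these counts cannot be set against it. Deviations from group means of same-numbered MCAO and PN libraries correlated at 0.06, -0.40 and -0.16 across genes. Differently numbered libraries were not correlated for comparison, so these values cannot decide whether the numbers pair the libraries. The minimum of 5 FPKM gave no value for Grin2b, which it removes.

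Several differences near 0 changed sign. With equal FPKM sums, median-of-ratios and quantile scaling, MCAO against sham became 0.020, 0.0026 and 0.067 for Grin1 and 0.019, 0.0016 and 0.041 for Gria1. For Grm5 it became -0.11 with array weights, also with PN 7A left out (-0.11). With the code's letter (A or B) in the fit, Slc17a7 turned to -0.24 for PN against MCAO and -0.16 for PN against sham, and PN against sham became -1.50 for Grin2a, -0.96 for Grin2b, -1.33 for Gria1 and -1.05 for Grm5, from -0.63, -0.50, -0.31 and -0.67. Median-of-ratios scaling took Gria2 in PN against sham to -0.0062. With ratios of FPKM + 1, the Grin2a to Grin2b difference was 0.012 for MCAO against sham and -0.14 for PN against MCAO.

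With 1 library left out in turn, MCAO against sham ran from -0.17 to 0.25 for Grin1, -0.78 to 0.46 for Gria1, -0.48 to 0.71 for Grm5, -0.055 to 0.20 for Dlg4 and -0.27 to 0.36 for Slc17a7. PN against MCAO ran from -1.02 to 0.48 for Gria1, -0.17 to 0.042 for Gria2 and -0.039 to 0.59 for Slc17a7. PN against sham ran from -1.14 to 0.12 for Grin2a, -1.03 to 0.46 for Gria1 and -0.047 to 0.16 for Gria2. The log2 ratio of Grin2a to Grin2b differed by -0.41 to 0.34 for MCAO against sham, -0.45 to 0.42 for PN against MCAO and -0.32 to 0.31 for PN against sham. For Gria1 to Gria2 these ranges were -0.93 to 0.32, -0.89 to 0.55 and -1.03 to 0.31. Grin2a in MCAO against sham ran from 0.035 to 1.25, and the median over the 9 genes from 0.035 to 0.34. In PN against MCAO, Grin1, Grin2a, Grin2b, Grm5, Dlg4 and Camk2a were below 0 under every alternative that gave a value; for Grin2b, Dlg4 and Camk2a, whose groups do not overlap, leaving out a library could not turn the sign.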
